A study of Mus musculus with 6 samples.

Results

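The thermogenic gene *Ucp1* and 8 regulators of brown and beige fat were examined in inguinal adipose tissue (iAT), a subcutaneous white fat depot of the mouse. The 9 genes are *Ucp1*, *Ppargc1a*, *Ppargc1b*, *Esrra*, *Esrrg*, *Prdm16*, *Ebf2*, *Dio2* and *Cited1*. They were picked by gene symbol for their known roles, with earlier results of these data known. Each matched 1 of the 19831 genes in the deposited table. All 9 had a mean of at least 10 normalized counts, as did 15309 genes of the table.

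RNA sequencing of iAT at postnatal day 6 covered 3 wild-type and 3 Npffr1-KO samples. *Npffr1* encodes a receptor for the neuropeptide FF, and Npffr1-KO samples lack this gene according to their labels. The methods of the study name specific-pathogen-free housing for its mice and TRIzol for RNA from adipose tissue. The labels give neither strain nor sex, and the methods of the study, which name male C57BL/6 mice for its own work, do not mention the knockout. How the knockout was made and whether each sample was a separate mouse are not given in these sources.

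Brown and beige adipocytes burn fuel to make heat. Cold or adrenergic signals raise cyclic AMP in these cells, the coactivators of the PGC-1 family then dock on nuclear receptors such as the ERRs and PPARs, and uncoupling protein 1 lets protons leak across the inner mitochondrial membrane. In inguinal fat, beige cells with this programme appear among white adipocytes, and the depot of young mice is known to contain multilocular, mitochondria-rich adipocytes.

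The promoters of these genes were searched for letters that factors of the cyclic AMP and nuclear receptor pathways are known to bind. RefSeq promoters (build GRCm38.p6) were found for 7 of the 9 genes, at 12 start sites, and the 250 bases before each start were searched on both strands. No promoter was given for *Ppargc1b* and *Ebf2*. The letters TGACG, the half-site of the cyclic AMP response element, occurred at 1 start each of *Ucp1*, *Ppargc1a*, *Dio2* and *Cited1*, or 4 of 12 starts, and in 17.8% of 32851 promoters of the same length. The full element TGACGTCA, which contains that half-site, occurred in *Dio2* alone among the 7 genes and in 1.55% of all promoters. The half-site that nuclear receptors share, AGGTCA, stood before *Ucp1* and before 1 start of *Cited1* and is held by 14.0% of all promoters. At the *Cited1* start an A before it completes the longer ERR half-site, which contains the shorter one and is held by 4.08% of all promoters.

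The promoters of the 3 genes below carry the half-site and belong to the effector, to the coactivator and to the enzyme of the programme. The *Ucp1* sequence lies at chr8:83290098-83290347 on the plus strand, with the cyclic AMP half-site from 147 to 143 and the nuclear receptor half-site from 14 to 9 bases before the start. The *Ppargc1a* sequence lies at chr5:51567726-51567975 on the minus strand, and its half-site, from 49 to 45 bases before the start, is on the opposite strand and so reads CGTCA. The *Dio2* sequence lies at chr12:90739039-90739288 on the minus strand, with the full element from 95 to 88 bases before the start. Each is printed 5′ to 3′ on the strand of its gene and ends at the last base before the start, and capitals mark the motif letters.
Ucp1: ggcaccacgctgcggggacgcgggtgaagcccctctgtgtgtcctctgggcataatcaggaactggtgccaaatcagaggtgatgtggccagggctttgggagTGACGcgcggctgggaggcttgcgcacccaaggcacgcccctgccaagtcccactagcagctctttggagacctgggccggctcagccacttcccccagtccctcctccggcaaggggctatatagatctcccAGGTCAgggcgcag
Ppargc1a: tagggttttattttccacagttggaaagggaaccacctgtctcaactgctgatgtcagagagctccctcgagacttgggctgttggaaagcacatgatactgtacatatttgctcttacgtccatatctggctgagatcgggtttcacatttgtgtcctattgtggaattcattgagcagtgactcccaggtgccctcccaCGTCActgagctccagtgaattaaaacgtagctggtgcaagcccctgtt
Dio2: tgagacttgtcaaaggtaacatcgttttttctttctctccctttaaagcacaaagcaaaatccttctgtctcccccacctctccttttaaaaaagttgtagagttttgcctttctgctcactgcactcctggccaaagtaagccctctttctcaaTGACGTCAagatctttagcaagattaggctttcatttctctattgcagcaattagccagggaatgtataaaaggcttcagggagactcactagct
A match is a description of the letters and not evidence that a factor binds there.

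The expression values limit what could be compared. The authors deposited 1 normalized value per genotype, and these sum over all genes to 23137343 for wild-type and 23640005 for Npffr1-KO. The 2 values of a gene are not means of the libraries but are drawn together. In the genes with a mean of 50 to 80 whose library means differed by at least 1.5-fold, the log2 ratio of the deposited values was at the median 0.893 of that between the library means. No test between the genotypes was possible on them. The 95% intervals given with the log2 ratios are exact binomial intervals over 3 times each value. They cover counting error only, taken on the deposited values and not on the reads of the libraries. For genes with a mean of up to 80 the reads of the 6 libraries could be worked out, since the mean of the 2 values is a sum of whole reads each worth a fixed amount per library. Of the 9 genes this reached *Dio2* and *Esrrg*. The libraries are called A, B and C within a genotype, in an arbitrary order that is not tied to the sample numbers.

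The targeted gene and the other cell types were checked first. *Npffr1* had 1, 0 and 5 reads in wild-type libraries A, B and C and 0 reads in all 3 Npffr1-KO libraries, where a total of 0 allows up to 3 reads. Adipocyte markers were abundant, the fatty acid carrier *Fabp4* reaching 156285 normalized counts in wild-type iAT against 173188 in Npffr1-KO iAT. One library stood apart. Npffr1-KO library A held 806 reads over the 8 of 15 skeletal muscle genes that could be resolved, against 112, 115 and 82 in wild-type and 120 and 93 in the other Npffr1-KO libraries. *Ckm*, the creatine kinase of muscle, had 2, 3 and 2 reads in wild-type and 215, 1 and 6 in Npffr1-KO. The basal keratinocyte gene *Krt5* had 0, 0 and 11 reads in wild-type and 21, 0 and 0 in Npffr1-KO, that is, reads in wild-type library C and Npffr1-KO library A alone. *Ckm* and *Krt5* were chosen after their values were seen. The 7 keratinocyte genes together had 171 to 185 reads in wild-type and 127 to 160 in Npffr1-KO.

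*Ucp1* and the 2 PGC-1 coactivators were listed higher in Npffr1-KO, while the factors that set brown fat identity stayed short of a 1.5-fold difference. Of the 9 genes, 3 had a value at least 1.5-fold higher in Npffr1-KO and 0 a value at least 1.5-fold lower. Over all 15309 genes the share past this fold was 2.78% higher and 3.12% lower, or 5.89% in either direction. Low genes passed it more often. Where reads could be worked out, the share in either direction was 16.1% for means of 25 to 50. For means of 50 to 80 it was 12.9%. At a fold of 2, *Ucp1* alone of the 9 genes was past it, beside 0.483% of all genes. The ratio was above 1 for 8 of the 9 genes. Their median log2 ratio was 0.32, beside 0.01 over all genes, whose 5th and 95th percentiles lay at -0.49 and 0.48. In bulk tissue, fewer cells of a type and less RNA per cell cannot be told apart.

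**Figure D1:**
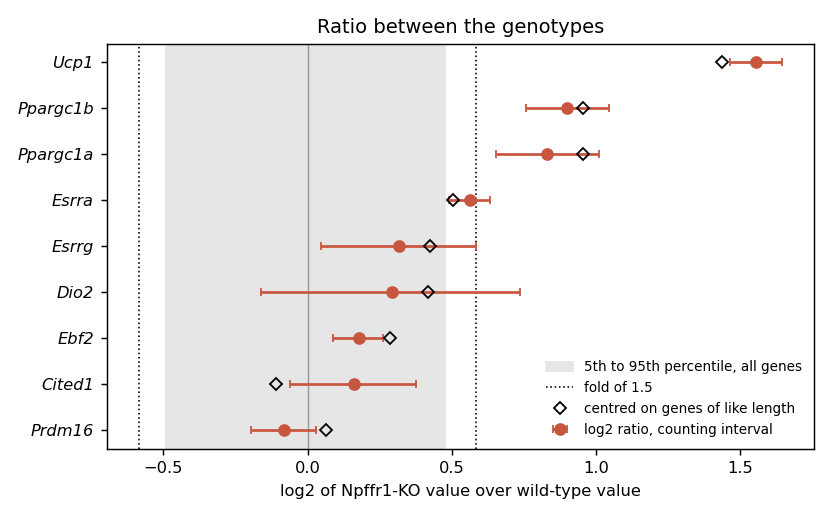
The log2 ratio of the Npffr1-KO value over the wild-type value of each gene (filled points, with 95% exact binomial intervals for counting error) and the ratio after centring on genes of like length (open diamonds). The shaded band holds the middle of all 15309 genes, from the 5th to the 95th percentile, and dotted lines mark a fold of 1.5: *Ucp1*, *Ppargc1b* and *Ppargc1a* lie to the right of it and *Esrra* just inside.

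*Ucp1*, the effector of uncoupled respiration, had a wild-type value of 438 and an Npffr1-KO value of 1287 normalized counts. The Npffr1-KO value was 2.94-fold the wild-type value, a log2 ratio of 1.55 with an interval of 1.46 to 1.65. Only 13 of the 15309 genes had a higher ratio. After centring on genes of like length it was 1.44, below that interval and still the highest of the 9 genes. The gene shares no stretch of 31 bases with transcripts of other genes in the GENCODE M21 annotation. Its reads per library could not be worked out, so whether the 3 Npffr1-KO libraries all exceed the wild-type libraries is not known, and the part of the muscle reads of Npffr1-KO library A in its value was not tested.

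The coactivators came next. *Ppargc1a* encodes PGC-1α, which cold and adrenergic signals induce, and was listed at 136 normalized counts in wild-type iAT against 241 in Npffr1-KO iAT. That is 1.78-fold, with a log2 ratio of 0.83 and an interval of 0.65 to 1.01. *Ppargc1b* encodes PGC-1β, a relative that drives mitochondrial biogenesis, and was listed at 201 and 374. Its value in Npffr1-KO was 1.86-fold that in wild-type, with a log2 ratio of 0.90 and an interval of 0.76 to 1.05. The counting intervals of both coactivators overlap, and both lie below that of *Ucp1*. The spread between libraries is not known for *Ucp1* or the coactivators, so whether their ratios differ could not be tested. Centring on gene length moved them to 0.96 and 0.95, respectively.

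The nuclear receptors *Esrra* and *Esrrg* bind these coactivators and switch on genes of oxidative metabolism. *Esrra*, which encodes ERRα, had a wild-type value of 876 and an Npffr1-KO value of 1293 normalized counts. Its 1.48-fold higher value fell just short of the fold of 1.5, with a log2 ratio of 0.56 and an interval of 0.49 to 0.63. For *Esrrg*, encoding ERRγ, the pooled values were 69.9 and 87.0, a log2 ratio of 0.32 with an interval of 0.05 to 0.58.

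The libraries of *Esrrg* overlapped between the genotypes. It had 87, 53 and 71 reads in wild-type libraries A, B and C and 136, 67 and 60 reads in Npffr1-KO libraries A, B and C. Normalized for library size, the mean was 68.8 ± 16.1 (SD, n = 3) in wild-type and 88.0 ± 37.3 (SD, n = 3) in Npffr1-KO. Npffr1-KO library A was the highest of all 6, and the other 2 Npffr1-KO libraries fell within the wild-type range. The log2 ratio of these means was 0.36, and the difference did not exceed the spread between libraries (p = 0.7, n = 3 per genotype, exact permutation test, two-sided). Without Npffr1-KO library A, which also held the muscle reads, the log2 ratio was -0.048. *Esrrg* is known to be expressed in skeletal muscle, and the part of that tissue in its reads was not tested.

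The factors that commit cells to the brown lineage were listed well short of a 1.5-fold difference. *Prdm16*, a zinc-finger coregulator that favours brown over muscle fate, had a wild-type value of 440 and an Npffr1-KO value of 415 normalized counts. Its log2 ratio was -0.08, with an interval of -0.20 to 0.03, and was 0.06 after centring on gene length. *Ebf2*, which opens brown fat genes to PPARγ, had 674 and 762 normalized counts, a log2 ratio of 0.18 with an interval of 0.09 to 0.26, and 0.29 after centring on gene length, above that interval. The ratios of *Prdm16* and *Ebf2* lay within the 5th to 95th percentile range of all genes, whereas those of *Ucp1* and the coactivators lay above it.

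*Dio2* encodes the deiodinase that makes active thyroid hormone inside brown adipocytes. It was the lowest of the 9 genes, with pooled values of 25.9 for wild-type and 31.7 for Npffr1-KO. It had 13, 11 and 51 reads in wild-type libraries A, B and C and 54, 26 and 19 reads in Npffr1-KO libraries A, B and C. One library of each genotype was high, wild-type C and Npffr1-KO A, and the genotypes overlapped. The normalized means were 24.6 ± 22.5 (SD, n = 3) and 33.0 ± 16.7 (SD, n = 3), with a log2 ratio of 0.42. This was not larger than the spread between libraries (p = 0.5, exact permutation test, two-sided). Without Npffr1-KO library A the log2 ratio was -0.070, and without wild-type library C it was 1.501. These 2 libraries also hold all *Krt5* reads. *Krt14*, a keratin of the same list named after its values were seen, had 0, 0 and 6 reads in wild-type and 11, 1 and 1 in Npffr1-KO. The other genes of the list did not share this pattern. The 7 keratinocyte genes together had 185 reads in wild-type library C against 178 and 171 in the others, and 160 in Npffr1-KO library A against 146 and 127. These sums include *Krt10*, with 244 reads in wild-type and 212 in Npffr1-KO. They also include *Trp63*, named for its read number, with 253 and 169. By library, *Trp63* had 102, 67 and 84 reads in wild-type and 42, 77 and 50 in Npffr1-KO, so Npffr1-KO library A was its lowest. The part of other cells in the level of *Dio2* was not tested.

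*Cited1*, a transcriptional coregulator used as a marker of beige cells, had a wild-type value of 109 and an Npffr1-KO value of 122 normalized counts. Its log2 ratio was 0.16 with an interval of -0.06 to 0.38. It is the shortest of the 9 genes, and after centring on genes of like length the ratio was -0.11. Several combinations of reads matched its mean, so its libraries could not be told apart.

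**Figure D2:**
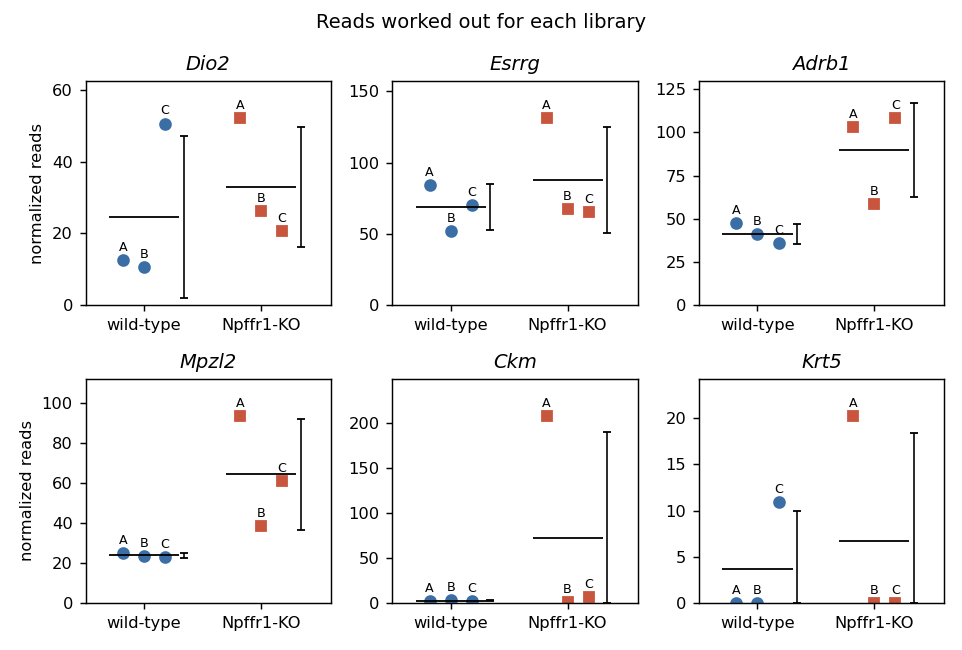
Normalized reads (linear axis) in each of the 3 libraries per genotype, labelled A to C, with the mean as a line and the SD as a bar that is cut at 0. *Dio2* and *Esrrg* overlap between genotypes, *Adrb1* and *Mpzl2* do not, and reads of *Ckm* lie almost entirely in Npffr1-KO library A.

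Levels were compared between genes per kilobase of gene length. In wild-type, *Esrra* was highest with 387 normalized counts per kilobase, followed by *Ucp1* with 267. *Cited1* with 138 and *Ebf2* with 122 formed the next pair. *Ppargc1b* with 54.8 and *Prdm16* with 52.1 were also near each other, above *Ppargc1a* with 20.9, *Esrrg* with 13.2 and *Dio2* with 4.03 normalized counts per kilobase. In Npffr1-KO *Ucp1* took the lead with 783 per kilobase over *Esrra* with 571, and the order of the other 7 genes was the same. Whether neighbours in this order differ beyond the spread between samples could not be tested from 1 value per genotype. As a yardstick, the 665 resolved genes with a mean of 50 to 80 had a median SD within genotypes of 0.32 on the log2 scale.

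**Figure D3:**
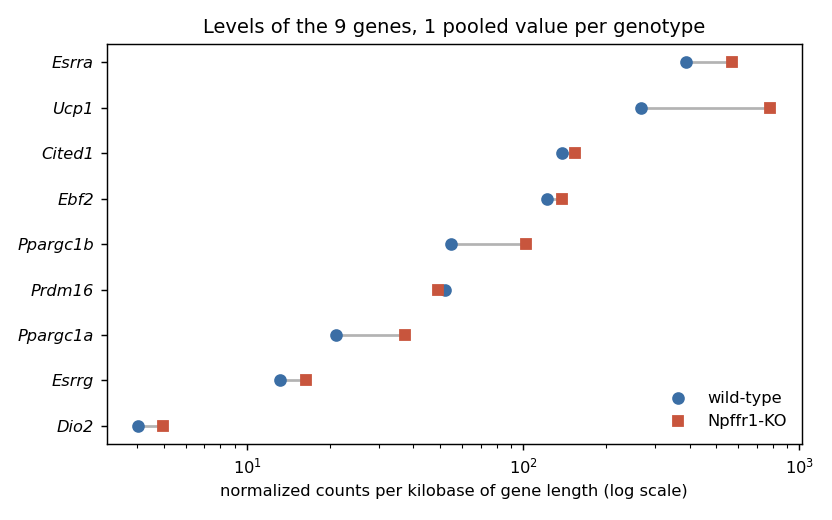
Pooled value of each gene per kilobase of gene length, on a log axis, in wild-type (circles) and Npffr1-KO (squares), ordered by the wild-type level. *Ucp1* spans the widest gap, from 267 to 783, and *Dio2* lies lowest in both genotypes.

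Thermogenic effector genes, a list chosen with earlier results of these data known, were listed higher in Npffr1-KO by widely differing ratios. Of 17 such genes 13 had a mean of at least 10. Of these 13, 9 were past the fold of 1.5 higher in Npffr1-KO and 0 lower. Over all 15309 genes the shares were 2.78% higher and 3.12% lower, which also stand beside the list counts below. The median log2 ratio of the 13 was 1.498, with a range of 0.09 to 2.51. *Cidea*, a lipid droplet protein of brown fat, had a wild-type value of 304 and an Npffr1-KO value of 1427 normalized counts, which is 4.69-fold. *Cox8b*, a cytochrome oxidase subunit of brown fat and muscle, had 460 and 1567, and *Cpt1b*, which carries fatty acids into mitochondria, had 243 and 686. *S100b*, a secreted factor that brown adipocytes share with Schwann cells, had 472 and 743. *Letmd1*, a mitochondrial protein needed for thermogenesis and the highest of the list, had 1313 and 1703, short of the fold. *Kcnk3*, named after its values were seen, had 1244 and 1338. *Elovl3*, also named after its values were seen, fell below a mean of 10, with 0 reads in wild-type and 3 in Npffr1-KO. Several of these genes are also expressed in muscle, and the part of muscle reads in their values was not tested.

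All 12 genes of a list of ERR and PGC-1 targets had a ratio above 1, though the lowest log2 ratio was only 0.01. Of the 12, 3 passed the fold, beside 2.78% of all genes past it higher. The median log2 ratio was 0.46, beside 0.01 over all genes. *Cycs*, cytochrome c, had a wild-type value of 3562 and an Npffr1-KO value of 5584 normalized counts, and *Pdk4*, a kinase that spares glucose, had 736 and 1458. *Atp5b*, a subunit of ATP synthase and the highest of the list, had 27361 and 35087, which is 1.28-fold.

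Among 17 partner transcription factors, 1 passed the fold. It was *Ppara*, a receptor for fatty acids, with 238 normalized counts in wild-type iAT against 651 in Npffr1-KO iAT. The other 16 did not, among them *Cebpa*, the highest, with 12682 and 12629, and the median of this list was -0.01. Of 10 repressors 0 were past the fold higher and 1 was past it lower. This was *Nrip1*, which encodes the corepressor RIP140, with 315 and 197 normalized counts. *Ncor1*, the highest of the repressors, had 6201 and 6234, and the median was -0.07.

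Markers of beige and classical brown adipocytes did not move as a block. Of 9 beige markers 1 was past the fold higher and 1 lower, with a median of 0.22. *P2rx5*, a purinergic receptor, had a wild-type value of 59.1 and an Npffr1-KO value of 175 normalized counts, whereas *Slc27a1*, a fatty acid transporter, had 10282 and 5442. Of 6 classical brown markers 1 passed, with a median of 0.01. This was *Mpzl2*, a membrane adhesion protein, with 26, 24 and 23 reads in wild-type and 97, 38 and 56 in Npffr1-KO. Every Npffr1-KO library exceeded every wild-type library (p = 0.1, exact permutation test, two-sided, the smallest p that 3 against 3 libraries allow). Its log2 ratio was 1.43, and 1.06 without Npffr1-KO library A. *Epsti1*, the highest of this list, had 2618 and 3686 normalized counts.

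In the adrenergic pathway, 2 of 11 genes were past the fold higher and 0 lower, beside 2.78% and 3.12% of all genes. The median of the 11 was 0.02. *Adrb1*, the β1-adrenergic receptor, had 49, 42 and 36 reads in wild-type and 107, 58 and 99 in Npffr1-KO, so the genotypes did not overlap (p = 0.1, exact permutation test, two-sided). Its log2 ratio was 1.12, and 1.01 without Npffr1-KO library A. *Gnas*, the stimulatory G protein and the highest of the list, was listed at 58958 and 59765 normalized counts. In total 7 low genes of the pathway were tested by permutation, without adjustment, and 3 did not overlap between genotypes, *Mpzl2*, *Adrb1* and the beige marker *Ear2*, which was chosen after its values were seen and had 72, 53 and 55 reads in wild-type and 78, 78 and 94 in Npffr1-KO. No p below 0.1 was possible. Among all resolved genes, 21.8% of the 665 with a mean of 50 to 80 and 18.2% of the 944 with a mean of 25 to 50 did not overlap.

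In the remaining pathway lists no gene passed the fold. The 5 other uncoupling proteins had a median of 0.05, with *Ucp2*, the highest of them, at 10021 normalized counts in wild-type iAT against 12425 in Npffr1-KO iAT. The 7 thyroid hormone genes had a median of 0.01, and *Thra*, a thyroid hormone receptor, was listed at 5256 and 4793.

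Among genes with 100 normalized counts or more on average, the 5 nearest to *Ucp1* in log2 ratio were *P2rx5*, *Cpt1b*, *Ppara*, the proton channel *Otop1* and *Cox7a1*, another cytochrome oxidase subunit. Likeness here is the gap between log2 ratios over the 2 pooled values, and it ranged from 0.02 for *P2rx5* to 0.13 for *Cox7a1*. *Otop1* had a wild-type value of 79.6 and an Npffr1-KO value of 252 normalized counts, and *Cox7a1* had 204 and 657.

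**Figure D4:**
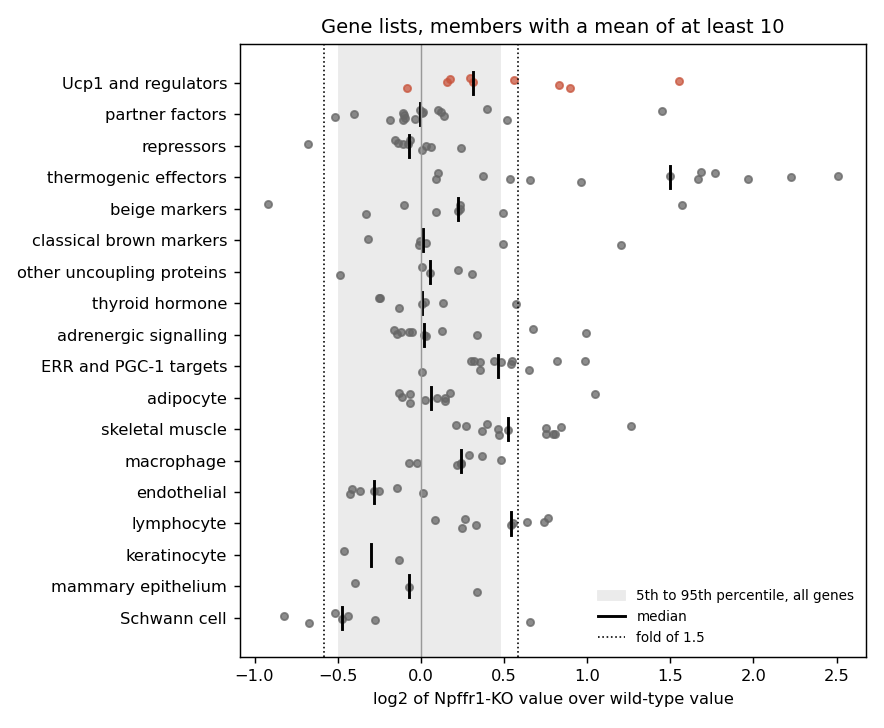
Log2 ratio of the Npffr1-KO value over the wild-type value by gene list, for genes averaging 10 or more normalized counts, with the median of each list as a black line, the 5th to 95th percentile of all genes shaded and a fold of 1.5 dotted. The thermogenic effectors lie farthest to the right with a median of 1.498, *Ucp1* and its regulators have a median of 0.32, and the Schwann cell genes have the lowest median, -0.48.

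Markers of other cell types also differed between the pooled values. Of 13 muscle genes 6 were past the fold higher and 0 lower, beside 2.78% and 3.12% of all genes. The median of the 13 was 0.52. Among the 6 was *Acta1*, skeletal muscle actin, with 171 normalized counts in wild-type iAT against 410 in Npffr1-KO iAT. *Tnnt3*, a troponin and also past the fold, had 90.5 and 152. *Myl1*, the highest muscle gene, had 967 and 1118. Summed over the 8 muscle genes that could be resolved, normalized reads were high in 1 library only. The sum was 777 in Npffr1-KO library A, 121 and 101 in Npffr1-KO libraries B and C, and 81.4 to 113 in wild-type. Not every gene followed the sum. *Mb*, myoglobin, named after its values were seen, had 13, 3 and 3 reads in wild-type and 14, 11 and 21 in Npffr1-KO. The pooled values show little of the excess in Npffr1-KO library A. For *Ckm* the log2 ratio was 0.75 between the pooled values and 4.97 between the library means. Of 9 lymphocyte genes 3 were past the fold of 1.5 higher, beside 2.78% of all genes. The median of the 9 was 0.55, and the T cell gene *Cd3g* had 1112 and 1891. These differences stand beside those of *Ucp1* and the effectors, and their part in them was not tested.

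Vascular, nerve and fat cell markers differed less or in the other direction. The 7 endothelial genes had a median of -0.28, and *Cdh5*, an adhesion molecule of vessels, was listed at 23029 and 17863. Of 7 Schwann cell genes 1 was past the fold higher, *S100b*, and 2 lower, with a median of -0.48. *Sox10*, the transcription factor of the glial lineage, was among the latter, with 719 and 407 normalized counts. Of 10 adipocyte genes 1 passed, the hormone *Lep* with 4210 normalized counts in wild-type iAT against 8703 in Npffr1-KO iAT, and their median was 0.06. None passed among 8 macrophage genes, with a median of 0.24, 2 keratinocyte genes, with a median of -0.30, or 3 genes of mammary epithelium, with a median of -0.07.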

How the data were processed

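The authors deposited a table of 19831 genes for 3 wild-type and 3 Npffr1-KO samples, with gene length in bases and a signal per genotype, made from read counts normalized for library size and pooled to 1 value per genotype. The submitters' processing notes name Bowtie2, RSEM and DESeq2, and their versions, the genome build and the annotation were not given in the sources used here. The same table holds the authors' log2 fold changes, p-values, adjusted p-values and direction calls, which the authors deposited for their own comparison and which were not used. A shorter deposited table of genes selected by that comparison was not used either. Each gene thus had 1 value per genotype in the table used here.

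Log2 ratios were taken between the 2 values, with no pseudocount, and a gene counted as past the fold at a ratio of at least 1.5 and a mean of at least 10. Exact binomial (Clopper-Pearson) intervals at 95% treat 3 times each value as reads, which are not independent molecules, so they cover counting error only. Since the 2 values of a gene are drawn together, 3 times a value is not the read number of a genotype. Median log2 ratios ran from 0.27 in the shortest to -0.15 in the longest of 20 classes of gene length, and centring on the class median was the main alternative. The members and lists were chosen with earlier results of these data known.

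The mean of the 2 values took 6 values for genes with a single read, 1 per library, and the genotype column that was higher gave the genotype of each library, 3 and 3. Size factors ranged from 0.916 to 1.04. For the 7274 genes averaging at most 80 normalized counts, every combination of whole reads was tried. Exactly 1 matched for 98.6%, several for 8 genes and none for 96. Of the 673 genes with a mean of 50 to 80 all matched at their own mean and 71 at a mean moved off it. The direction was that of the pooled values for all 5034 genes whose log2 ratio exceeded 0.1 in size. In a first search without least-squares refinement of the single-read values more genes found no match; the refinement and the limit of 80 were chosen after seeing the data. The search was tested on simulated data. Genes named are the 9 members, of each other list the member with the highest mean and up to 4 past the fold, and the 5 genes nearest to *Ucp1* in ratio. Names outside this rule are marked, and some genes that the rule names are not reported here. The labels do not say whether samples came from separate animals, so permutation p-values measure the spread between these libraries, which may be technical. With 3 against 3 libraries no p below 0.1 can be reached. Computations used Python 3.11.15, numpy 2.4.6, pandas 2.3.3, scipy 1.17.1 and numba 0.67.0.

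Opposite-strand genes of GENCODE M21 overlap 1.17% of the exon bases of *Prdm16*, 6.12% of *Ebf2* and 1.72% of *Dio2*, and genes of either strand overlap 3.74% of *Esrra*. Whether the counting used strand is not given, and such reads could not be told apart. At most 2.31% of the stretches of 31 bases of a member, for *Esrra*, also occur in other genes.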

Additional observations from a re-analysis of the deposited data

How the results depend on the processing

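The count of the 9 genes past the fold was 3, and 1 with a fold of 2. It stayed within 1.5 times of 3 under the other alternatives run, which were centring on the median gene or on genes of like length, pseudocounts of 1 and 10, other minimums of the mean, and a lower fold, with a log2 ratio of 0.32. Over the 9 pathway lists 19 genes were past the fold in either direction, 37 with that lower fold and 10 with a fold of 2. These lists held 17, 10, 13, 9, 6, 5, 7, 11 and 12 genes with a mean of at least 10. Over all 15309 genes 5.89% were past the fold of 1.5 in either direction, and 0.483% were past a fold of 2 higher. The share of all genes at the lower fold is not given here. The median log2 ratio of the 9 genes was 0.32. Under the alternatives it ran from 0.28, with a pseudocount of 10, to 0.44, with a minimum mean of 50. *Ucp1* ranked 2 among the 9 genes by wild-type value per kilobase, 1 by Npffr1-KO value per kilobase and 4 by wild-type value not divided by length. Centring on genes of like length moved the log2 ratio of 4 of the 9 genes outside its counting interval, and it turned the sign for *Prdm16*, to 0.06, and for *Cited1*, to -0.11. Leaving out 1 library at a time gave log2 ratios of -0.070 to 1.501 for *Dio2* and -0.048 to 0.53 for *Esrrg*. Both were below 0 only without Npffr1-KO library A, and the cause was not tested. Taking reads without size factors, or the ratio of the pooled values, which was added after seeing the data, kept the direction of both. No paired analysis was possible because the values per genotype carry no replicate numbers and the libraries worked out from them are not tied to sample numbers. The depth limits *Dio2* most, with 75 reads in wild-type and 99 in Npffr1-KO. For the 7 genes with higher means, the spread between libraries is not known. In genes with a mean of 50 to 80 and pooled values past the fold, 66 of 86 had libraries that did not overlap, beside 21.8% of all 665 resolved genes of that mean. The 86 were picked for a difference in the same libraries, so their share cannot tell whether the libraries of the 7 genes overlap.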
